A study of Mus musculus with 6 samples.

Results

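Respiratory chain assembly factors were measured in the epididymal fat of mice fed a normal diet (ND) or a high-fat diet (HFD). The members are 44 genes named by symbol, grouped by the complex that they help to build. The rule that names them uses no measured value, but they were chosen with earlier results of these data known. All 44 were found among the 54532 identifiers of the count table, with 14 for complex I, 4 for complex II, 6 for complex III, 17 for complex IV and 3 for complex V. The mice were male C57BL/6J animals that received ND with 4.5% fat or HFD (D12492) with 60% fat from 4 weeks of age for 16 weeks. Whole epididymal fat, the visceral depot beside the epididymis, gave 3 libraries for each diet, and the labels name no treatment other than diet. The RNA came from all cells of the depot, so that fewer cells of a type and less RNA per cell cannot be told apart. The labels do not say whether each library came from 1 animal, and a p-value therefore measures the spread between these libraries.

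The respiratory chain of the mitochondrial inner membrane passes electrons from NADH and succinate to oxygen and pumps protons, and the ATP synthase (complex V) uses the resulting gradient to make ATP. Assembly factors are proteins that insert cofactors, hold intermediates together or bring subunits to the membrane, and most are absent from the finished complex. Loss of many of them in people causes mitochondrial disease with a defect of a single complex, and in fat cells the chain serves fatty acid oxidation and the supply of ATP for lipid synthesis.

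Count totals were between 16996896 and 18859320 per library, and a count of 3, used as the floor, was equal to between 0.150 and 0.181 CPM (counts scaled to the library size with edgeR's TMM factor). Adipocyte and macrophage markers both differed between the diets. The summed level of the 12 adipocyte markers was 36933 to 47138 CPM on ND but 14821 to 35705 CPM on HFD, where 4 of the 12 were lower and 1, Lep, was higher. Much of this difference lay in Cfd, with a mean of 13634 CPM on ND and 1275 CPM on HFD. The other 7 markers were not called. The summed level of the 12 macrophage markers was 1775 to 1873 CPM on ND but 3793 to 8422 CPM on HFD, where 8 of the 12 were higher and none was lower. Epithelial markers (6 genes) summed to 223.3 CPM in the third ND library and to 21.02 to 30.9 CPM in the other 5. The part of these differences in the results was not tested.

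Of the 44 members, 43 had enough counts to be tested, and Sco2 had none in any library. At an adjusted p-value under 0.05 (edgeR's quasi-likelihood test over 15751 genes, Benjamini-Hochberg adjustment), 4 members were lower in HFD-fed mice and none was higher. The members that fell were Ndufaf1, Ndufaf7 and Ecsit of complex I and Atpaf1 of complex V. They make up 9.30% of the members tested, and 6.04% of all genes tested were lower. For the opposite direction, 9.85% of all genes were higher. At an unadjusted p-value under 0.05, 12 members were lower and 0 were higher, and over all genes tested 15.3% of the genes were lower and 18.7% higher at this limit. DESeq2 called 6 members lower, the same 4 with Bcs1l (adjusted p = 0.0445) and Ttc19 (adjusted p = 0.0466), and 0 higher, where 8.42% of its genes were lower. limma-voom called 4 lower and 0 higher.

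The log2 fold change (HFD minus ND) was negative in 35 and positive in 8 of the 43 members, that is 81.4% negative, against 49.5% of all genes tested. The median was -0.23 for the members and 0.0074 for all genes. The values lay between -0.71 for Sdhaf1 and 0.55 for Cox17, and the standard errors were between 0.115 and 0.379. In 16 members every HFD library was below every ND library, and in 0 members every HFD library was above. The corresponding shares of all genes were 19.1% and 21.7%. The diets overlapped in the other 27 members.

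**Figure D1:**
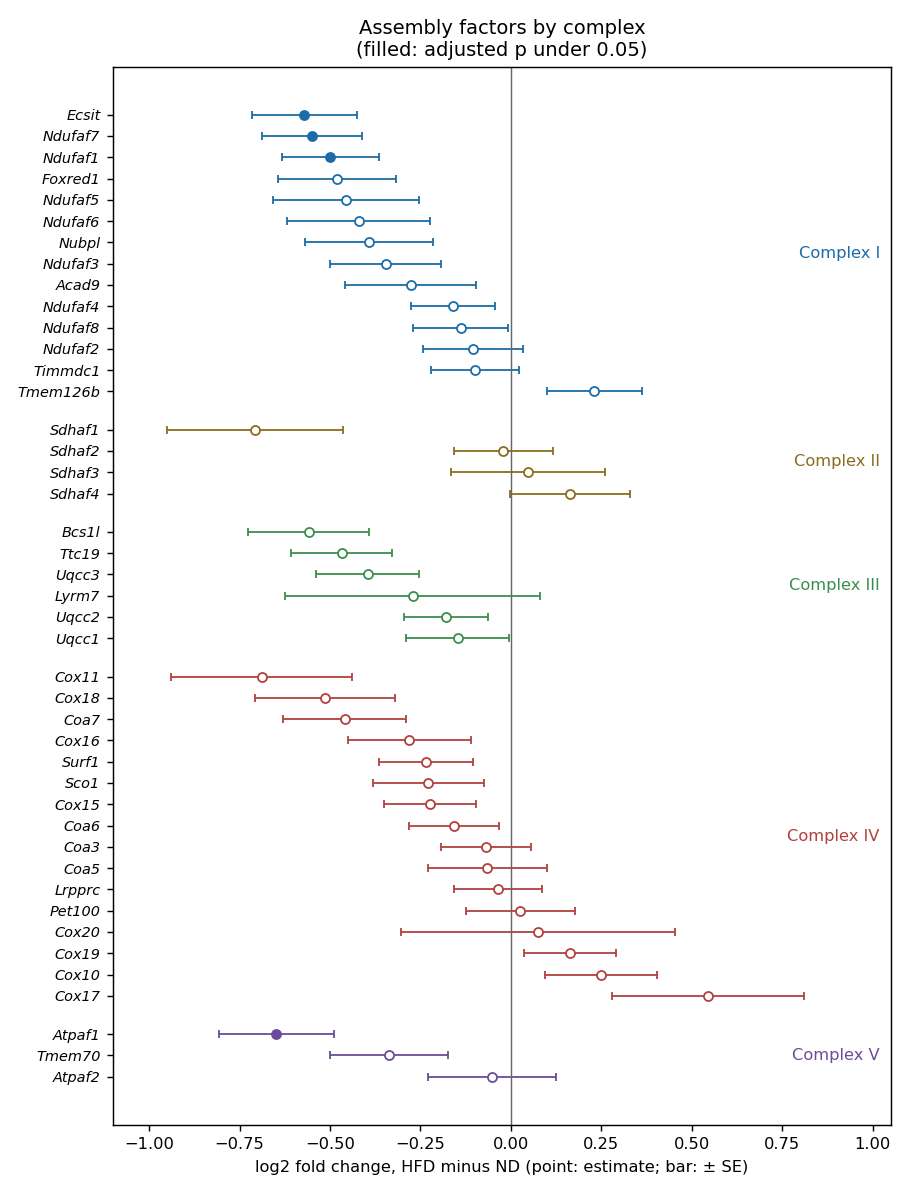
The log2 fold change of HFD against ND (x axis, bars show ± SE) is plotted for the 43 members tested, grouped by complex, with filled points for an adjusted p-value under 0.05. The 4 filled points lie between -0.65 and -0.50, and the open points reach from -0.71 (Sdhaf1) to 0.55 (Cox17).

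The stretches before the transcription start are shown for 3 of the 4 members that fell and for Ttc19, whose stretch holds a motif, since these are the sequences in which a shared element would be looked for. They come from RefSeq (GRCm38.p6), which gave a promoter of 250 bases before to 50 bases after the start for 38 of the 44 members, and only the longest run of the 250 bases that lies in no exon of GENCODE M21 is printed, on the strand of the gene. Capitals mark a motif match. The run of Ndufaf1 covers chr2:119662835-119663084 (minus strand), that of Ndufaf7 chr17:78937067-78937134 (plus strand), that of Atpaf1 chr4:115784578-115784811 (plus strand) and that of Ttc19 chr11:62281376-62281472 (plus strand).
Ndufaf1: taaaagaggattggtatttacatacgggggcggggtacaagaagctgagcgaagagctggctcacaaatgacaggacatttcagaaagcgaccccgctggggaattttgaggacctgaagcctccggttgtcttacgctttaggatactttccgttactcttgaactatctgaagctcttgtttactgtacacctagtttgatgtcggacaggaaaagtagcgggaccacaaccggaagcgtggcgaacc
Ndufaf7: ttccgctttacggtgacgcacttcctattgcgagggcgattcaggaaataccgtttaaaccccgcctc
Atpaf1: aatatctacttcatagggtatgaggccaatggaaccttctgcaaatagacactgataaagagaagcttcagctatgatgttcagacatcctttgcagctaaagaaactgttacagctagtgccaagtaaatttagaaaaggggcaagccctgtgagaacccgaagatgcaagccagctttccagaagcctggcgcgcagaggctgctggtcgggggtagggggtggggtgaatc
Ttc19: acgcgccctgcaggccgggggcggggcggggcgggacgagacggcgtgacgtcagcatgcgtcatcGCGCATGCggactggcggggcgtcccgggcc
The promoter of Ecsit lies wholly within annotated exons and is not printed. Of the 250 bases before Ndufaf7, 72.8% lie in exons of Cebpz, which is read in the opposite direction.

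The letters of 4 motifs were searched on both strands of the 300-base promoters, namely the NRF1 core GCGCATGC, the ERR site TCAAGGTCA, the ETS site CCGGAAGT bound by GABP, and the YY1 site AAGATGGC. These factors are known to act on genes of the respiratory chain. Of the 40 promoters of the members, 3 held the NRF1 core (7.50%, and 2.71% of all 32851 promoters), 5 the ETS site (12.5% and 3.89%), 6 the YY1 site (15% and 2.75%) and 0 the ERR site (0.423% of all). At least 1 of the 4 was found in 32.5% of the members' promoters, in 37.3% of the 67 promoters of structural subunits and in 9.25% of all promoters. The members' promoters were also richer in G and C, with a median of 61.6% in the 250 bases before the start against 52.4% in all promoters. Base composition was not matched, so these shares are descriptions. Only exact matches were counted, so a site that differs in 1 letter would be missed. No exact match was found in the promoters of Ndufaf1, Ndufaf7, Ecsit or Atpaf1. Ttc19 had the NRF1 core 31 bases before its start and Bcs1l the ETS site 47 bases before its start. Of the 250 bases before Ttc19, 47.6% lie in exons of Zswim7, and of those before Bcs1l, 83.2% lie in exons of Zfp142. Both of these genes are on the opposite strand, and the ETS site of Bcs1l reaches into an exon of Zfp142. The NRF1 core overlaps its own reverse complement, and in Ndufaf4 and Ndufaf5 matches on both strands shared bases.

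Complex I, the NADH dehydrogenase, is built from modules that are made apart and then joined. Of its 14 assembly factors 3 fell, 13 had a negative log2 fold change, and the median was -0.37. Over all genes tested, 6.04% were lower and 49.5% had a negative log2 fold change. In 8 of the 14 every HFD library was below every ND library, which held for 19.1% of all genes tested.

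Of these, Ndufaf1, Ecsit, Acad9, Timmdc1 and Tmem126b form the mitochondrial complex I assembly (MCIA) complex and its partners, which build the membrane arm. Ndufaf1 (ENSMUSG00000027305, chromosome 2 of GRCm38 from 119655446 to 119662827) is a core protein of this complex. Its level was 27.5, 27.7 and 25.2 CPM on ND but 18.5, 21.5 and 16.9 CPM on HFD, from 478 to 509 counts on ND and 293 to 357 counts on HFD. Every HFD library was below every ND library, and the log2 fold change was -0.50 ± 0.13 (SE, n = 3 per diet, adjusted p = 0.0462 from edgeR's test). Ecsit (ENSMUSG00000066839, chromosome 9 from 22072246 to 22085438) has a part in complex I assembly and a separate one in Toll-like receptor signalling. Ecsit was at 30.0, 31.9 and 27.2 CPM on ND and at 22.1, 21.02 and 16.8 CPM on HFD, again without overlap. Its log2 fold change was -0.57 ± 0.15 (SE, n = 3 per diet, adjusted p = 0.0389 from edgeR's test). An opposite-strand gene, Gm16845, shares 24.0% of the exonic bases of Ecsit, and the strand setting of the counting is not given in the sources used here.

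The other 3 of the group did not pass the test. Acad9, an acyl-CoA dehydrogenase that also serves complex I assembly, had -0.28 ± 0.18 on the log2 scale (adjusted p = 0.318 from edgeR's test). Timmdc1, a membrane protein of the same intermediates, had -0.10 ± 0.12 (adjusted p = 0.602). Tmem126b, which binds the others in the inner membrane, had the highest value of complex I. It was at 40.2, 51.9 and 41.6 CPM on ND and at 49.8, 52.7 and 54.4 CPM on HFD, with a log2 fold change of 0.23 ± 0.13 (adjusted p = 0.257 from edgeR's test), and the diets overlapped. Within the libraries, the ratio of the counts of Ndufaf1 to those of Tmem126b was 0.534 to 0.684 on ND and 0.310 to 0.408 on HFD. The ratio of Ecsit to Tmem126b was 0.615 to 0.746 on ND and 0.309 to 0.445 on HFD. These pairs were chosen after their values were seen, as genes called lower and the highest value of the complex, so the ratios are a description.

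Among the 9 other factors of complex I, 1 fell and all 9 had a negative log2 fold change, with a median of -0.39. Ndufaf7 (ENSMUSG00000024082, chromosome 17 from 78937136 to 78948052), a methyltransferase of the mitochondrial matrix, was at 33.3, 32.7 and 30.0 CPM on ND and at 18.9, 25.1 and 21.6 CPM on HFD. The diets did not overlap, and the log2 fold change was -0.55 ± 0.14 (SE, n = 3 per diet, adjusted p = 0.0379 from edgeR's test). Ndufaf7 shares no exonic base with another gene.

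Foxred1, a flavoprotein of late assembly, was next in order (log2 fold change -0.48, adjusted p = 0.0854 from edgeR's test), and its HFD libraries were all below those of ND. The same was true of Ndufaf5 (-0.46, adjusted p = 0.159), which hydroxylates Ndufs7, of Ndufaf6 (-0.42, adjusted p = 0.178), of Nubpl (-0.39, adjusted p = 0.165), which delivers iron-sulfur clusters, and of Ndufaf4 (-0.16, adjusted p = 0.365). Ndufaf3, the partner of Ndufaf4, had -0.35 (adjusted p = 0.157) with overlap. Ndufaf2, which acts at the last step, had -0.10, and 65.7% of its exonic bases are shared with the opposite-strand gene B230220B15Rik. Ndufaf8, the partner of Ndufaf5, had the highest level per length of the complex I factors, at 28.0 FPKM (fragments per kilobase per library size) over the 6 libraries. Ndufaf8 was at 24.8, 25.2 and 22.6 CPM on ND and at 21.04, 24.8 and 20.1 CPM on HFD, with overlap and a log2 change of -0.14 (adjusted p = 0.496).

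**Figure D2:**
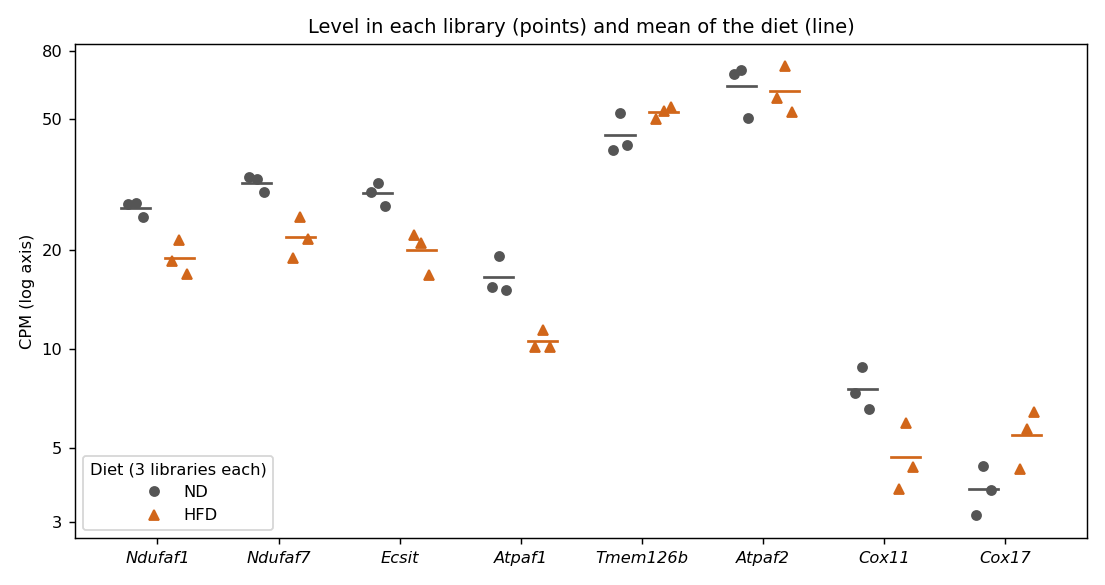
The level in CPM (log axis) of 8 members is plotted for each library, with circles for the 3 ND and triangles for the 3 HFD libraries and a line at the mean of each diet. Ndufaf1, Ndufaf7, Ecsit, Atpaf1 and Cox11 show no overlap between the diets, whereas Tmem126b, Atpaf2 and Cox17 overlap.

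Complex II, the succinate dehydrogenase, has 4 nuclear-encoded subunits and 4 known factors. None of the factors passed the test, 2 had a negative value, and the median log2 fold change was 0.01. Sdhaf1, an LYR-motif protein that serves the iron-sulfur subunit, had the lowest value of all members. It was at 7.56, 5.51 and 5.65 CPM on ND and at 3.61, 4.40 and 3.46 CPM on HFD. Every HFD library was below every ND library, but the log2 fold change of -0.71 ± 0.24 had an adjusted p of 0.0879 in edgeR's test. Sdhaf1 shares 69.6% of its exonic bases with E130208F15Rik on the opposite strand. Sdhaf4, which binds flavinylated Sdha, had the highest value and the highest level (24.2 FPKM) of the complex II factors. Sdhaf4 was at 18.2, 21.9 and 19.1 CPM on ND and at 19.6, 26.8 and 19.99 CPM on HFD, with overlap and a log2 change of 0.16 (adjusted p = 0.522). Sdhaf2, needed for the attachment of FAD to Sdha, had -0.02, and Sdhaf3, another LYR-motif protein, had 0.05.

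Complex III, the cytochrome bc1 complex, had 6 factors, all with a negative log2 fold change and a median of -0.33. None passed edgeR's test, whereas DESeq2 called Bcs1l and Ttc19 lower. Bcs1l, the AAA ATPase that carries the Rieske protein across the inner membrane, had the lowest value. It was at 18.4, 21.6 and 15.7 CPM on ND and at 11.3, 13.1 and 13.5 CPM on HFD. No library overlapped, and the log2 fold change was -0.56 ± 0.17 (adjusted p = 0.0614 in edgeR's test). Ttc19, which clears fragments of the Rieske protein after its insertion, had -0.47 ± 0.14 (adjusted p = 0.0592 in edgeR's test) and no overlap.

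Uqcc1, Uqcc2 and Uqcc3 accompany newly made cytochrome b. Uqcc3 had -0.40 on the log2 scale (adjusted p = 0.0961 in edgeR's test) without overlap. Uqcc2 had the highest level of the complex III factors (52.6 FPKM). Uqcc2 was at 42.6, 50.5 and 45.8 CPM on ND and at 39.2, 39.4 and 44.2 CPM on HFD, with overlap and a value of -0.18 (adjusted p = 0.316). Uqcc1 had the value closest to 0 in the group (-0.15, adjusted p = 0.506), at 57.5, 55.3 and 44.4 CPM on ND and at 46.1, 53.1 and 42.7 CPM on HFD. Lyrm7, the chaperone of the Rieske protein in the matrix, was a low gene (0.958 FPKM), and its value of -0.27 had a standard error of 0.35.

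Complex IV, the cytochrome c oxidase, needs the delivery of copper and of heme A and has the most factors. Of the 17, 16 were tested, none passed, 11 had a negative log2 fold change, and the median was -0.11. In 3 of the 16, namely Cox11, Cox18 and Coa7, every HFD library was below every ND library. This share is close to the 19.1% of all genes tested.

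The copper group held both ends of the range. Cox11, which places copper in the subunit Cox1, was at 7.34, 8.82 and 6.60 CPM on ND and at 3.77, 5.96 and 4.38 CPM on HFD. The diets did not overlap, and the log2 fold change was -0.69 ± 0.25 (adjusted p = 0.101 in edgeR's test). Tom1l1 shares 48.4% of the exonic bases of Cox11 from the opposite strand. Cox17, the chaperone that hands copper to Sco1, Sco2 and Cox11, was at 3.13, 4.41 and 3.75 CPM on ND and at 4.32, 5.72 and 6.45 CPM on HFD. 1 HFD library lay just below the highest ND library, and the log2 fold change was 0.55 ± 0.27 (adjusted p = 0.193 in edgeR's test). Cox17 had only 58 to 112 counts, and its annotated exons together cover the whole span of the gene. Gm21987 shares 257 of these 5773 bases on the same strand. Reads of introns may therefore have been counted for Cox17, and reads in the shared bases may not. The ratio of the counts of Cox17 to those of Cox11 was 0.427 to 0.568 on ND and 0.960 to 1.47 on HFD, for a pair chosen as both ends of the range.

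Cox19, Coa6 and Sco1, which also serve copper delivery, had 0.16, -0.16 and -0.23 on the log2 scale, with adjusted p-values from 0.333 to 0.409. Sco2, the close relative of Sco1, was at 0 counts in all 6 libraries, which allows up to 0.150 to 0.181 CPM. However, 91.8% of the exonic bases of Sco2 lie within Ncaph2 and Tymp, and reads there may not have been counted for Sco2, so that its level was not measured. Likewise Cox20, a chaperone of Cox2 with 91.1% of its exonic bases in Hnrnpu, had only 17 to 32 counts and a log2 fold change of 0.08 ± 0.38.

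Cox10 and Cox15 make heme A in successive steps, and their log2 fold changes were 0.25 ± 0.16 and -0.22 ± 0.13 (adjusted p = 0.299 and 0.254 from edgeR's test). Among the other factors, Cox18, which inserts the tail of Cox2, had -0.51 ± 0.19 (adjusted p = 0.111), and Coa7, with Sel1 repeats, had -0.46 ± 0.17 (adjusted p = 0.105). Surf1, whose loss causes Leigh syndrome in people, had -0.23 (adjusted p = 0.248), and Cox16, which acts on Cox2, had -0.28 (adjusted p = 0.286). Gm20498 shares 56.8% of the exonic bases of Cox16 on the same strand. Coa3, which binds newly made Cox1, had the highest level of all members at 68.6 FPKM. Coa3 was at 57.3, 68.6 and 59.1 CPM on ND and at 52.9, 62.2 and 61.3 CPM on HFD, with overlap and a log2 change of -0.07 ± 0.12 (adjusted p = 0.732). Coa5, Pet100 and Lrpprc, an RNA-binding protein that keeps mitochondrial mRNAs stable, had values between -0.07 and 0.03, and 52.6% of the exonic bases of Pet100 lie in Pcp2 on the opposite strand. The shares of the other overlapping members were 14.1% for Coa6, 12.7% for Sdhaf4, 9.26% for Coa3, 9.15% for Cox15, 7.82% for Surf1, 6.82% for Acad9, 4.45% for Cox17, 2.65% for Ndufaf3, 1.61% for Cox10, 1.31% for Sdhaf2 and 0.0214% for Ttc19.

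Complex V had 3 factors. Atpaf1 (ENSMUSG00000028710, chromosome 4 from 115784812 to 115818828), the chaperone that binds the beta subunit of the F1 part, was at 15.4, 19.2 and 15.1 CPM on ND and at 10.2, 11.4 and 10.1 CPM on HFD. The diets did not overlap, and the log2 fold change was -0.65 ± 0.16 (SE, n = 3 per diet, adjusted p = 0.0345 from edgeR's test), the lowest adjusted p-value of the members. Atpaf2, the chaperone of the alpha subunit, was at 68.1, 70.4 and 50.2 CPM on ND and at 57.6, 72.0 and 52.4 CPM on HFD. Its libraries overlapped, and HFD minus ND was -0.05 ± 0.18 on the log2 scale (adjusted p = 0.862). The ratio of the counts of Atpaf1 to those of Atpaf2 was 0.227 to 0.302 on ND and 0.159 to 0.193 on HFD, again for a pair chosen after its values were seen. Tmem70, which helps to assemble the ring of c subunits, had the highest level of the 3 (35.0 FPKM). Tmem70 was at 67.0, 84.7 and 59.4 CPM on ND and at 55.1, 62.6 and 49.4 CPM on HFD, with overlap and a log2 change of -0.34 ± 0.16 (adjusted p = 0.192).

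The 4 calls depended on which libraries were included. When each library was left out in turn, Ndufaf1, Ndufaf7, Ecsit and Atpaf1 passed the adjusted threshold in 1 of the 6 fits, the one without the second HFD library, and had an unadjusted p-value under 0.05 in all 6. Without the second HFD library 7 members fell, the 4 with Foxred1, Nubpl and Cox11, and without any other library 0 members passed. The whole table moved as well, with 1572 genes lower without the second HFD library and 94 to 743 without any other. That library had the highest CPM of its diet in 24 of the 43 members. It also had the highest summed adipocyte markers of its diet (35705 CPM) and the lowest summed macrophage markers (3793 CPM), whose part in the result was not tested. On ND, the second library was the highest in 35 of 43 members and the third, with the epithelial markers, the lowest in 27.

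The structural subunits stood beside the factors in the same fit. Of 75 nuclear-encoded subunits 28 fell (37.3%), 0 rose, 74 had a negative log2 fold change and the median was -0.51. Of all genes tested, 6.04% were lower. All 13 protein-coding genes of the mitochondrial genome had negative values with a median of -1.09, and 7 of them fell. Their mean levels reached from 0.569 CPM for mt-Atp8 to 12058 CPM for mt-Co1. Of those that fell, mt-Co2, mt-Co3 and mt-Atp6 were at only 41.4, 21.6 and 20.9 CPM. Whether all reads of these low genes were counted was not tested. By complex, the medians of factors and subunits were -0.37 and -0.56 for complex I, 0.01 and -0.62 for complex II, -0.33 and -0.56 for complex III, -0.11 and -0.48 for complex IV, and -0.34 and -0.40 for complex V. The median of the factors was closer to 0 in each of the 5, but the difference between the lists was not tested. Of the subunits, 16 of 36 fell in complex I, 2 of 4 in complex II, 4 of 9 in complex III, 3 of 11 in complex IV and 3 of 15 in complex V.

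**Figure D3:**
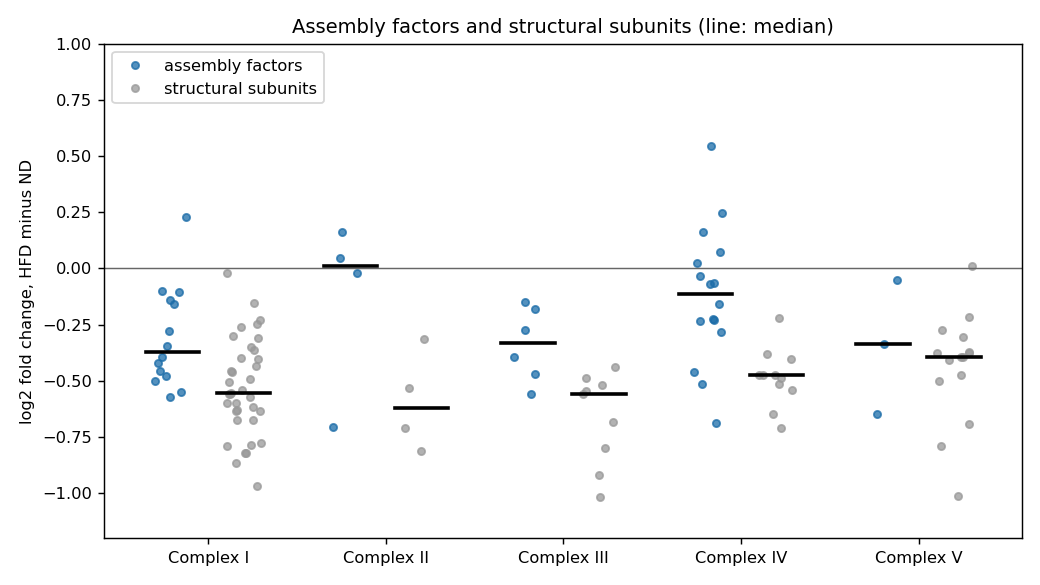
The log2 fold change of HFD against ND is plotted for the assembly factors tested (blue) and the nuclear-encoded structural subunits (grey) of each complex, with 1 point per gene and a line at the median. The subunits lie mostly below 0, with medians from -0.62 to -0.40, and the factors have medians from -0.37 to 0.01.

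The factors and the subunits also differed in level. The median over the 6 libraries was 7.42 FPKM for the factors and 88.1 FPKM for the subunits. For the factors of complexes I to V the medians were 8.92, 9.23, 7.76, 4.85 and 29.2 FPKM, and for the subunits 60.02, 99.8, 131, 186 and 103 FPKM. The medians over all factors and over those of complex IV include Sco2 at 0 FPKM, although its level was not measured. The standard error of the log2 fold change had a median of 0.153 in the members, and 5 of the 44 had a mean count under 100.

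**Figure D4:**
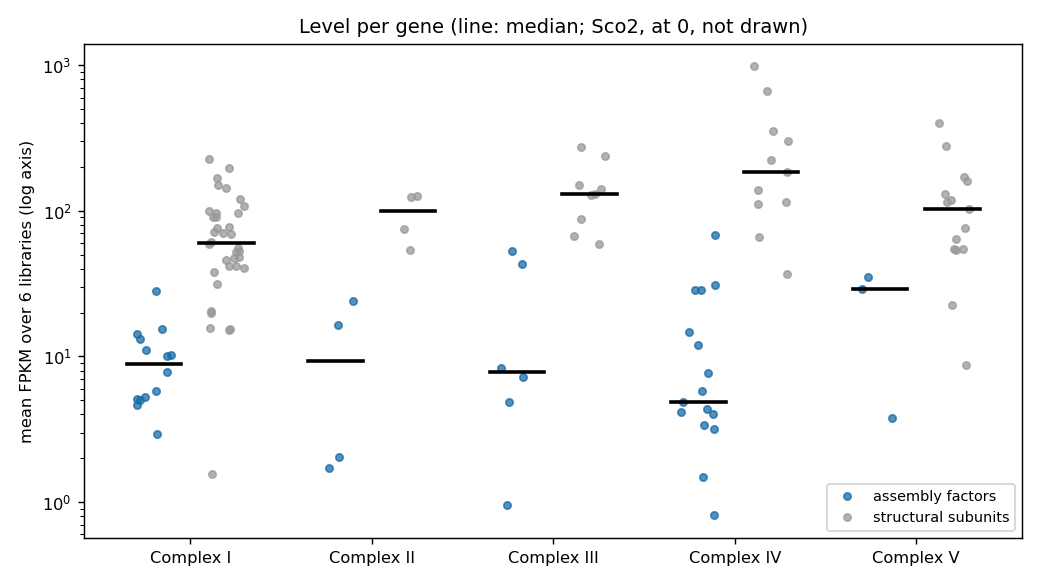
The mean FPKM over the 6 libraries (log axis) is plotted for each assembly factor (blue) and structural subunit (grey) by complex, with a line at the median of all genes of a list. The factors lie mostly below the subunits of their complex, and Coa3 (68.6 FPKM) is the highest factor.

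The median over the members of the log2 ratio to the ND mean was -0.02, 0.17 and -0.12 on ND but -0.26, -0.17 and -0.27 on HFD. All 3 HFD libraries were therefore below the ND libraries by this measure. For the subunits the 3 HFD medians were -0.60, -0.37 and -0.61. For the adipocyte markers the corresponding HFD values were -0.74, -0.13 and -1.51, and for the macrophage markers 1.36, 0.88 and 1.81. By complex, the medians of the members in the 3 HFD libraries were -0.37, -0.17 and -0.50 for complex I. They were -0.21, 0.16 and 0.03 for complex II and -0.35, -0.26 and -0.39 for complex III. For complex IV they were -0.22, -0.04 and -0.14, and for complex V -0.35, -0.17 and -0.51. In complexes II, IV and V the diets overlapped by this measure, with lowest ND medians of -0.16, -0.10 and -0.25.

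**Figure D5:**
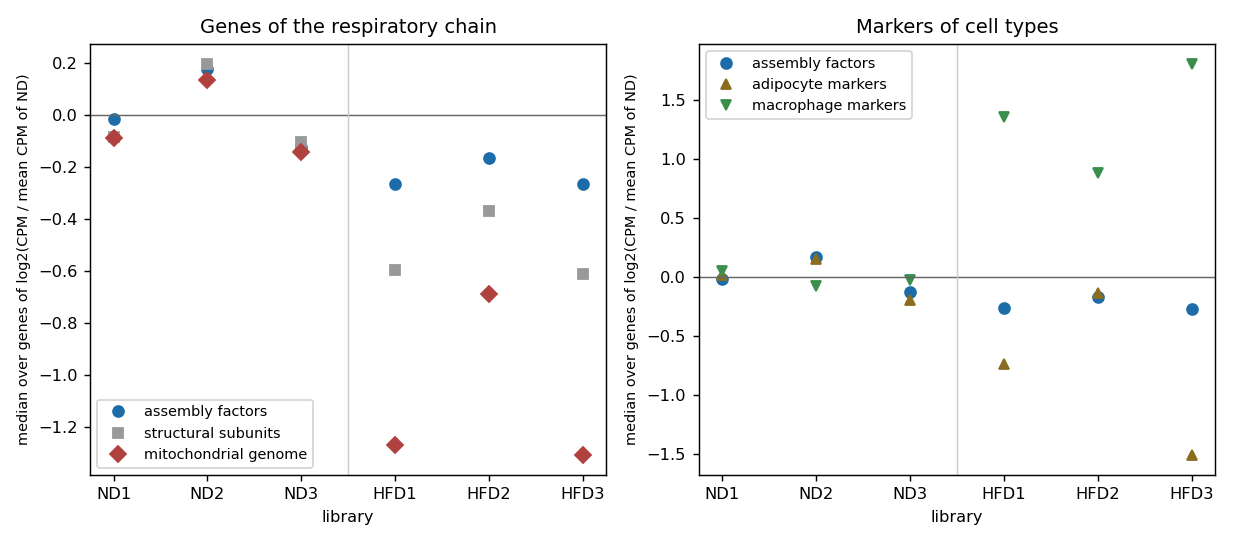
The median over the genes of a list of log2(CPM / mean CPM of ND) is plotted for each of the 6 libraries, with the genes of the respiratory chain in the left panel and cell type markers in the right. The assembly factors lie between -0.27 and -0.17 in the HFD libraries, and the adipocyte markers reach from -1.51 to -0.13.

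Other assembly genes outside the 44 members were read from a list of 17 genes found in the table, of which 16 were tested. Fmc1, an ATP synthase factor, fell by 1.18 on the log2 scale (adjusted p = 0.0120 from edgeR's test), Tmem177, which acts with Cox20, by 0.87 (adjusted p = 0.0170) and Cox14, the partner of Coa3, by 0.51 (adjusted p = 0.0244). Coa4 rose by 0.93 on the log2 scale (adjusted p = 0.0285). The median of the 16 was -0.29. With each library left out in turn, Fmc1 passed in 3 of the 6 fits, Tmem177 and Cox14 in 2 and Coa4 in 1.

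Among 12 regulators of mitochondrial biogenesis 2 fell. Ppargc1a, the coactivator PGC-1alpha, was at 7.99, 8.93 and 10.2 CPM on ND and at 1.803, 3.01 and 1.21 CPM on HFD (log2 fold change -2.17 ± 0.35, adjusted p = 0.0114 from edgeR's test). Tfam, which packs and transcribes the mitochondrial genome, had -0.51 ± 0.11 (adjusted p = 0.0249). The transcription factors whose motifs were searched did not pass the test, with -0.20 for Esrra (adjusted p = 0.425), 0.22 for Nrf1 (adjusted p = 0.297), 0.08 for Gabpa (adjusted p = 0.581) and 0.03 for Yy1 (adjusted p = 0.889). Of 10 other mitochondrial genes, taken as a measure of mitochondrial content, 1 fell, the citrate synthase Cs (-0.86, adjusted p = 0.0399). The median of these 10 was -0.23, with values from -0.86 to 0.08. With each library left out in turn, Ppargc1a passed in 4 of the 6 fits, and Tfam and Cs in 2.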

How the data were processed

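RNA-seq of whole epididymal fat gave 3 ND and 3 HFD libraries, grouped by the diet in the labels. Total RNA was isolated with TRIzol and libraries were made with the NEBNext Ultra kit. Raw, unnormalized counts for each gene were deposited. The deposited FPKM values of those genes are the counts over a gene length and a library factor (checked on 11492 genes). The submitters' processing notes name the human builds GRCh38 and hg38, fastp, HISAT2 2.0.5, featureCounts 1.5.0-p3 and DESeq2 1.20.0, whereas the paper names GRCm38 with TopHat and Cufflinks. The identifiers are mouse genes, and 54495 of 54532 were found in GENCODE M21 (GRCm38), used for names and coordinates. The annotation release and the strand setting of the counting are not given in the sources used here.

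Counts were tested with edgeR 4.0.16 (R 4.3.3, glmQLFit with robust=TRUE, TMM, filterByExpr), with diet as the only factor and Benjamini-Hochberg adjustment over 15751 genes. The standard error was derived from the F statistic. FPKM values were used for levels between genes. With 3 samples against 3, no exact permutation test of a single gene can pass the threshold of 0.05, so none was run. The floor of 3 counts covers counting error only. As alternatives, limma-voom (limma 3.58.1) and DESeq2 1.42.0 were run, besides other size factors, other filters, robust=FALSE, a block for the replicate number, limma on log2(FPKM + 1) or log2(FPKM + 0.1) with and without a filter of 0.5 in 3 libraries, and each library left out. The fits were tested on simulated data.

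The members and the gene lists were chosen with earlier results of these data known. Values in every library are given for the members past the threshold, for those with the highest and the lowest log2 fold change and the highest FPKM of each complex, and for the member without counts. From each other list at most the 3 genes with the lowest adjusted p-value are named, with exceptions for 5 regulators, and Coa4 and Yy1 were named after their values were seen. The function groups within complexes I and IV were also set afterwards. The share of exonic bases in another gene is given for the members that have one.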

Additional observations from a re-analysis of the deposited data

How the results depend on the processing

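The count of members that fell was 4 in the main test, 6 with DESeq2, 4 with limma-voom, 0 without a filter, 0 with limma on log2(FPKM + 1) without a filter and 0 to 7 with each library left out. With the replicate block it was 2 (Ecsit and Foxred1), with 0 in complex V, but same-numbered libraries are of different mice and share only a number (their deviations from the group means had correlations of -0.086, -0.056 and -0.0053). Scaling by library size only kept the count at 4, with Bcs1l in place of Ndufaf1. Without a filter, and on FPKM without a filter, complex I and complex V each had 0. DESeq2 called 2 members of complex III, 1596 genes and 46 subunits lower, and scaling by library size only called 1 member of complex III. On FPKM without a filter 211 genes were lower, 368 were higher and 5 subunits were lower. With each library left out, the median of the members was -0.34 to -0.15, complex I had 0 to 5 members lower, complex IV 0 to 1, complex V 0 to 1, and the subunits 0 to 45, with 94 to 1572 genes lower and 337 to 2368 higher. No alternative called a member higher. Of the members not called, 9 changed sign when a library was left out, with ranges of -0.20 to 0.29 for Cox20, -0.062 to 0.13 for Pet100, -0.22 to 0.038 for Atpaf2, -0.14 to 0.076 for Sdhaf2, -0.54 to 0.11 for Lyrm7, -0.13 to 0.017 for Coa3, -0.23 to 0.071 for Coa5, -0.13 to 0.040 for Lrpprc and -0.089 to 0.16 for Sdhaf3. The cause was not tested. At 3 libraries per diet the standard errors of the members, 0.115 to 0.379, limit what can be told apart from no difference.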
